A study of Mus musculus with 48 samples.

Results

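The genes described here encode digestive enzymes that acinar cells of the pancreas secrete: the elastases Cela1, Cela2a and Cela3b, the chymotrypsinogen Ctrb1, the carboxypeptidases Cpa1 and Cpb1, and the lipases Pnlip, Pnliprp1 and Pnliprp2. The 9 genes were chosen with earlier results of these data known, and each was represented by the array probe that carries that gene alone and has the highest mean over all arrays. Such a probe was found for 8 of the 9 genes, among 18194 genes with a probe of their own. Pnlip, the main triglyceride lipase of pancreatic juice, was not analysed here. Each of the 8 measured genes exceeded 100 on the linear scale in at least 1 array and so were tested. Their mRNA was followed through 13 sorted mouse pancreatic populations, from the early bud to the adult.

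Acinar cells make and store enzyme precursors in zymogen granules and release them into the duct system. Elastases and chymotrypsin cut proteins internally, and carboxypeptidases remove single residues from the carboxyl end, with Cpa1 preferring hydrophobic and Cpb1 basic residues. Of the lipase family, Pnlip and Pnliprp2 digest dietary fat, and Pnliprp2 also accepts galactolipids. In acinar cells the transcription of enzyme genes is driven by the trimeric PTF1 complex, which holds Ptf1a, a common E protein and Rbpj or its acinar relative Rbpjl. Nr5a2, Gata4, Bhlha15 (Mist1) and Xbp1 are further regulators of the acinar program or of its secretory machinery. Cpa1 is known besides as a marker of multipotent tip progenitors in the early pancreatic bud.

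The study compared purified populations of fetal and adult pancreas to describe how gene expression changes as progenitors give rise to exocrine and endocrine cells. All mice were on a CD-1 background, and all but 1 group were wild type. Progenitors came from E11 (labelled E11.5; n = 4) as dorsal bud cells carrying a Sox9-eGFP reporter, whose long-lived eGFP may also mark recent Sox9-negative progeny. At E15 (labelled E15.5) progenitors (n = 3), acinar cells (n = 3) and endocrine progenitors (n = 3) were sorted by CD49f, CD133, CD24 and a Neurog3-eGFP reporter. Acinar cells were the CD49f-high fraction and progenitors the CD49f-low fraction without eGFP, while endocrine progenitors were CD49f-low with eGFP. Neurog3-null cells (n = 4) were eGFP-positive cells of embryos that carry eGFP in place of both Neurog3 copies, and their labels give E15.5 as the stage in one field and E1.5 in another. Beta cells were sorted by GFP under the mouse insulin promoter at E15 (n = 4), E17 (labelled E17.5; n = 3), P1 (labelled P0; n = 3), P15 (n = 4) and in adults of 8 to 12 weeks (n = 4). Alpha cells were sorted by a glucagon-Venus reporter at P1 (labelled P0; n = 4) and in adults of 8 to 12 weeks (n = 5), and adult duct cells by CD133 after red blood cells and leukocytes were gated out (n = 4; 8 to 12 weeks). Each array held RNA amplified from pooled animals. No adult acinar population was among the groups analysed here, so E15 acinar cells were the acinar reference.

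The 9 genes have promoters of different make-up, shown here as background. Whether the promoters have a part in the measured levels was not tested. The 250 bases before the transcription start were read from RefSeq's annotation of GRCm38.p6, 5′ to 3′ on the gene's strand. Letters in capitals are matches to 4 motifs searched on both strands: E-boxes bound by Ptf1a (CACCTG or CAGCTG), the Rbpjl box TTTCCC, the Nr5a2 core AAGGTCA or AAGGCCA, and the TATA box TATAAA. Cela1 is shown as the promoter with all 4, Ctrb1 and Cela3b as the genes with the largest rise between the progenitor stages, and Pnliprp1 as the promoter with none.
Cela1 (chr15:100687921-100688170, minus strand): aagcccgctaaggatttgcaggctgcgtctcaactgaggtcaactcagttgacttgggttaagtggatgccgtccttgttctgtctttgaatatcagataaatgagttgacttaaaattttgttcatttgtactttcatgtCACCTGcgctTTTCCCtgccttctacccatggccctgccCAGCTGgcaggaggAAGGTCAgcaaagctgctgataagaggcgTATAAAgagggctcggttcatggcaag
Ctrb1 (chr8:111691011-111691260, minus strand): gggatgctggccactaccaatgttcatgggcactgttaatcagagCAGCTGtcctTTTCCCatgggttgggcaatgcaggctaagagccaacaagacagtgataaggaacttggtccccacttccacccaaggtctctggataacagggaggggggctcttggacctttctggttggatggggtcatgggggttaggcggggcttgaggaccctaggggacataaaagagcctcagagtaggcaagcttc
Cela3b (chr4:137430521-137430770, minus strand): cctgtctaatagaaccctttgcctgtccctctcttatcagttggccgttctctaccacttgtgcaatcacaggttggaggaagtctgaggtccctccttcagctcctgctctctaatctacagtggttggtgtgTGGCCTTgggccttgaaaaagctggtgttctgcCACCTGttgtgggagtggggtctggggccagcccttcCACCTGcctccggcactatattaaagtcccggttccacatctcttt
Pnliprp1 (chr19:58728637-58728886, plus strand): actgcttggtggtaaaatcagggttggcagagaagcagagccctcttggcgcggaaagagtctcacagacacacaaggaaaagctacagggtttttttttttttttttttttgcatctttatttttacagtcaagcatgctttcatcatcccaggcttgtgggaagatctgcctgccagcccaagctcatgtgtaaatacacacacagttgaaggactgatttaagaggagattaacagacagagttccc
Cela1 and Ctrb1 both hold an E-box followed by TTTCCC on the same strand with 4 bases between them. The E-box starts at position -109 in Cela1 and -205 in Ctrb1, counted from the transcription start. Among all 32851 promoters of the annotation, searched from 250 bases before to 50 after the start, 9 (0.0274%) hold an E-box and TTTCCC in this order and spacing on either strand. These are the promoters of Cela1, Ctrb1, the trypsinogen gene Prss1, Gm5771, Pacc1, Npnt, Tnfrsf9, Gm44507 and Esp18. The spacing was searched for after it had been seen in these promoters, so its share is a description only. From 250 bases before to 50 after the start, an E-box of either form was found in 7 of the 9 promoters (32.9% of all promoters). TTTCCC was found in 4 (25.2%), an Nr5a2 core in 4 (10.6%) and TATAAA in 3 (13.6%). Of these matches, the E-boxes of Cpa1 (positions 3 and 23) and the TATAAA of Cpb1 (position 36) lie after the start. A match is a run of letters and not a shown binding site. Pnlip, Pnliprp1 and Pnliprp2 lie side by side on chromosome 19, with only lncRNA genes between them in the annotation.

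Values are log2 levels after RMA, on which a step of 1 is a doubling, and levels of different genes are not set against each other. Array medians lay between 6.58 and 6.88 and array maxima between 14.6 and 15.1, so the highest enzyme levels were close to the top of the measured range. In E15 acinar arrays 2 to 4 of the 8 genes lay within 1 log2 unit of the array's highest probe, and in adult duct arrays 4 to 8 did. A difference between such levels may be understated. A call below means an adjusted p under 0.05 with a difference of at least 1 on the log2 scale, from limma fitted to all probes and all 48 arrays. In sorted bulk cells a lower share of enzyme-making cells and less enzyme mRNA per cell cannot be told apart. The acinar label was checked by its 6 factors, of which Ptf1a (12.68), Rbpjl (12.11), Bhlha15 (12.80), Gata4 (11.62) and Xbp1 (12.90) had their highest mean of all populations in E15 acinar cells. Nr5a2 had its highest in Neurog3-null cells (12.64 against 12.26 in acinar cells).

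Adult duct cells had the highest mean for 6 of the 8 genes, E15 acinar cells for Cpa1 and E15 Neurog3-null cells for Pnliprp1. In E15 acinar cells the arrays were close together, with an SD between 0.01 and 0.12 log2 units. Cela1 measured 13.63, 13.61 and 13.76 there. At the low end stood E11 progenitors for Cela2a, Cela3b, Ctrb1 and Cpb1, endocrine progenitors for Pnliprp2, E17 beta cells for Cela1 and adult alpha cells for Cpa1 and Pnliprp1. Most neighbours in these orders did not differ beyond their spread. For Cela3b, for instance, adult duct (14.46), adult beta (14.19), E15 acinar (13.91) and P1 beta cells (13.91) followed each other, and of these steps only adult beta to E15 acinar had arrays that did not overlap. A separate step stood at the bottom of that gene's order, from E15 beta cells (10.39) to E11 progenitors (5.18).

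**Figure D1:**
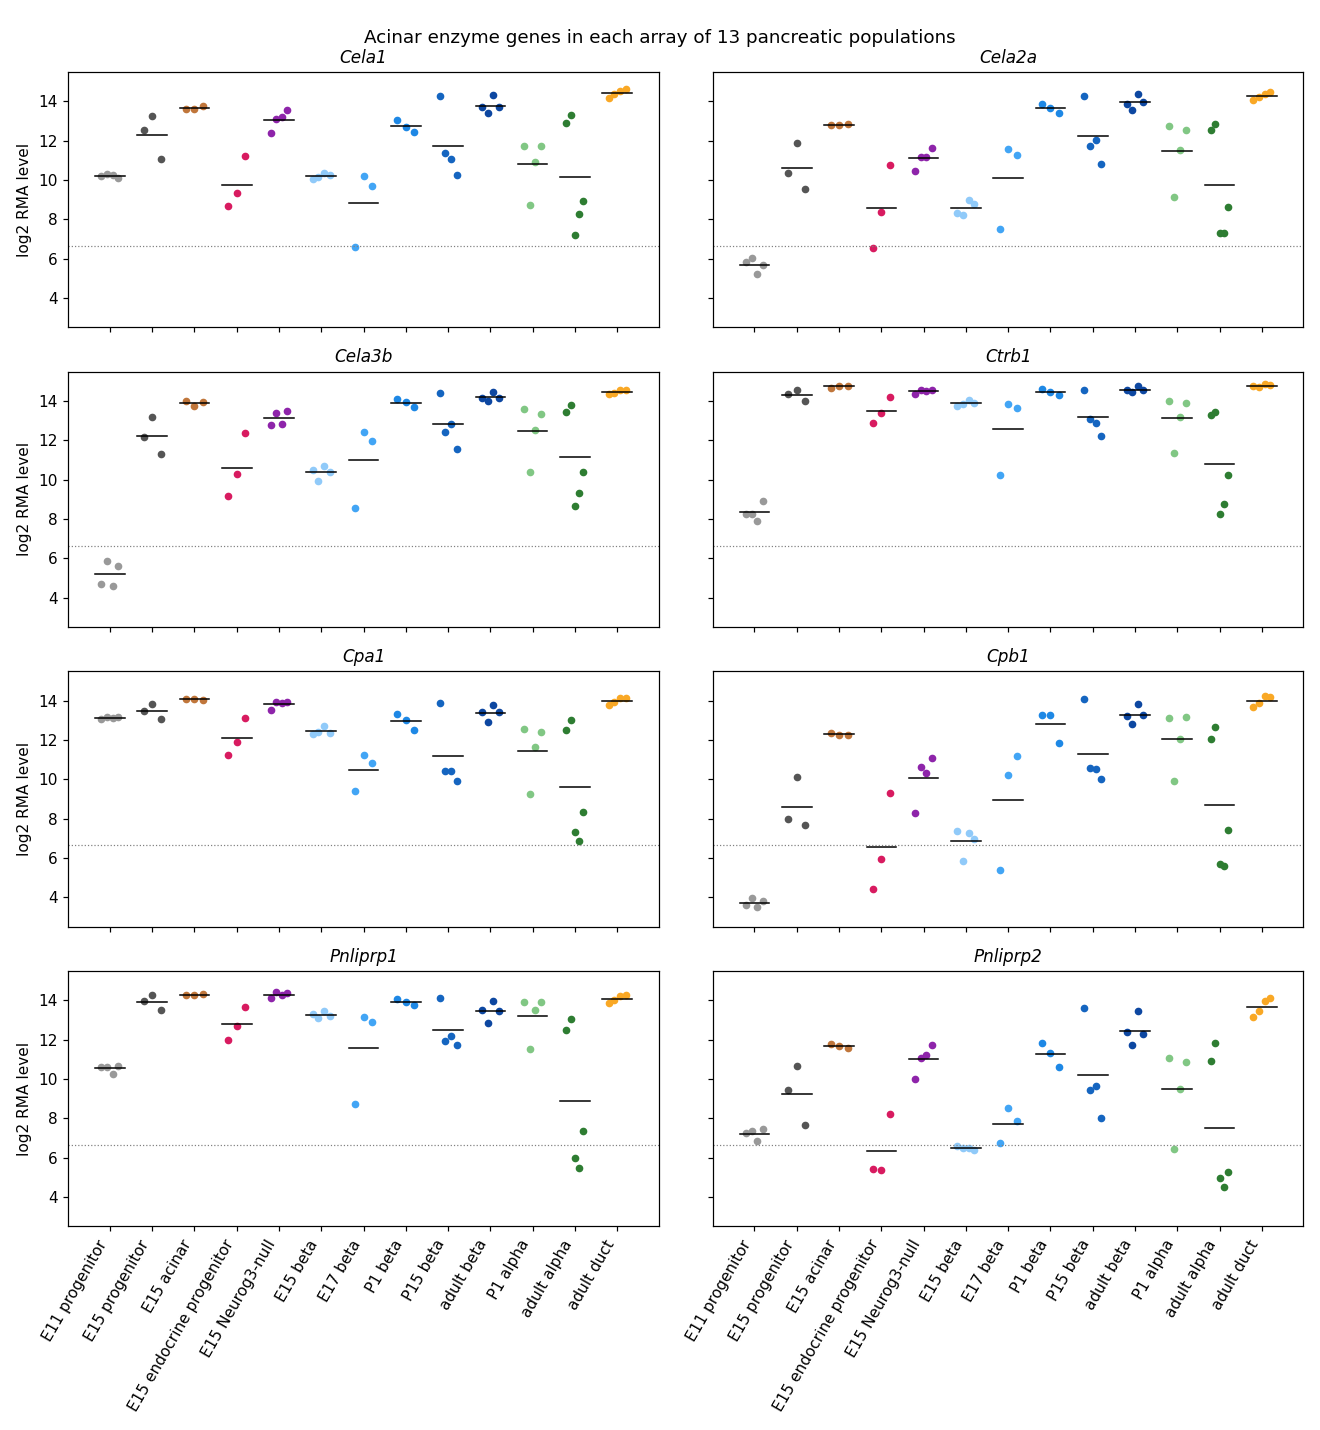
Log2 RMA level (vertical axis) of 8 enzyme genes in each array of 13 populations (horizontal axis). Points are arrays, the short black line is the population mean and the dotted line marks 100 on the linear scale. E15 acinar arrays lie within a narrow band for every gene, while adult alpha arrays fall into a high pair and 3 low arrays.

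The first enzyme to stand out was Cpa1, which was already high in the E11 bud. Its E11 arrays measured 13.09, 13.18, 13.14 and 13.19, against 13.50, 13.85 and 13.05 in E15 progenitors. These arrays overlapped, and the difference was 0.32 ± 0.93 (SE; limma adjusted p = 0.85). Cela1 and Pnliprp1 were measurable at E11 too, with means of 10.22 ± 0.10 (SD, n = 4) and 10.54 ± 0.19. Cpb1, in contrast, had 3.62, 3.97, 3.50 and 3.82 at E11, and Cela3b 4.70, 5.85, 4.58 and 5.60, all under 100 on the linear scale.

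Between E11 and E15 progenitors 5 of the 8 enzymes rose, where 4.95% of all tested probes were called higher. Cela3b went from the E11 values above to 12.15, 13.19 and 11.33 at E15, a fitted difference of 7.04 ± 0.88 (limma adjusted p = 4.3e-08). Ctrb1 went from 8.26, 8.26, 7.89 and 8.93 to 14.36, 14.57 and 13.99, a difference of 5.97 ± 0.80 (limma adjusted p = 1.7e-07). The E11 arrays of Cela3b, Cela2a and Cpb1 were all under the minimum of 100, where differences are less exact. For Cela3b and Ctrb1 every E15 array lay above every E11 array by several log2 units. Cela2a rose by 4.90 ± 1.03, Cpb1 by 4.87 ± 1.28 and Pnliprp1 by 3.38 ± 1.07 (limma adjusted p = 0.00031, 0.0039 and 0.017). Cela1 and Pnliprp2 had differences of 2.07 ± 0.97 and 2.03 ± 1.22 that were not called (limma adjusted p = 0.12 and 0.24), although their arrays did not overlap. Arrays of 7 of the 8 genes were apart in this direction, against 20.9% of all tested probes. In a fit of both populations alone, Cela1 (2.07 ± 0.42, limma adjusted p = 0.0045) and Pnliprp2 (2.03 ± 0.58, limma adjusted p = 0.021) were called as well. With the replicate number as a block in such a fit they were also called (2.03 ± 0.38 and 2.10 ± 0.43, limma adjusted p = 0.0099 and 0.013). Deviations of same-numbered arrays correlated only weakly (r from 0.106 to 0.148), and their labels share only a number. RNA of other cell types differed between these stages: 9 of 10 endocrine markers were called lower at E15, with array means of 11.02 to 11.26 at E11 and 6.74 to 7.87 at E15, and 5 of 8 duct markers were called higher. Their part in the enzyme differences was not tested.

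At E15, every enzyme was higher in all acinar arrays than in all progenitor arrays, but none was called in the fit over all populations. Cpb1 measured 7.99, 10.14 and 7.67 in progenitors and 12.38, 12.25 and 12.27 in acinar cells. Its difference of 3.70 ± 1.37 was the largest and just missed the threshold (limma adjusted p = 0.052). Pnliprp2 had 9.45, 10.67 and 7.64 against 11.78, 11.66 and 11.58, a difference of 2.42 ± 1.30 (limma adjusted p = 0.21). The smallest gaps belonged to Ctrb1 (0.43 ± 0.85) and Pnliprp1 (0.37 ± 1.15), whose progenitor levels were already 14.31 and 13.93. Arrays were apart with acinar cells higher for 8 of 8 genes, against 20.4% of all tested probes, while 9.9% of all tested probes were called in either direction. The standard errors come from a spread pooled over all populations, between 1.09 and 1.76 log2 units for these genes against a median of 0.31 over all tested probes. Adult alpha cells contributed 43.3% to 69.8% of that pooled sum of squares. Fitted to these 2 populations alone, Cpb1 (adjusted p = 0.0041), Cela2a (0.019), Cela3b (0.022) and Pnliprp2 (0.032) were called by limma.

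Progenitor arrays themselves were not alike. Array 2 was the highest and array 3 the lowest for all 8 enzymes, with means over the 8 genes of 12.73 and 10.97, and array 1 lay between them at 11.79. The mean of the 6 acinar factors had the same order, 11.52, 9.93 and 10.90. In the same order of arrays, duct markers averaged 10.81, 11.27 and 10.96, mesenchyme markers 8.89, 7.88 and 7.56, and endocrine markers 7.87, 7.39 and 6.74. Endothelial markers averaged 5.04 to 5.48 in progenitor and 8.58 to 9.67 in acinar arrays, with 10 of 10 called higher. The part of these values in the comparison with acinar cells was not tested.

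Of the 6 acinar factors 5 rose from E15 progenitors to acinar cells, where 4.07% of all tested probes were called higher. Rbpjl (2.32), Bhlha15 (2.08) and Ptf1a (2.00) had the largest differences (limma adjusted p = 0.0013, 0.00039 and 0.0047), followed by Gata4 (1.96) and Xbp1 (1.08). Nr5a2, with 12.04 in progenitors and 12.26 in acinar cells, was not called. The median difference over the 6 factors was 1.98, that over the 8 enzymes 1.54 and that over all tested probes -0.01. Among 10 other acinar enzymes and cofactors with a probe, 1 was called higher, the amylase Amy1 (1.79, limma adjusted p = 0.0052). Klk1, a kallikrein (2.80), Ctrc, chymotrypsinogen C (2.56), and Prss3, a trypsinogen (2.43), had larger differences that were not called (limma adjusted p = 0.10, 0.097 and 0.091). Among 12 genes of zymogen granules and stimulated secretion, the granule GTPase Rab3d was called higher (1.92, limma adjusted p = 0.00071). The granule lectin Zg16 and the granule membrane protein Cuzd1 had differences of 2.88 and 2.43 (limma adjusted p = 0.051 and 0.17).

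Endocrine progenitors, which leave the exocrine path, had lower enzyme levels than acinar cells in every array. Calls were made for 5 of the 8 genes, all lower, where 13% of all tested probes were called lower. Cpb1 measured 4.45, 5.95 and 9.32 in endocrine progenitors, and with the acinar values above the difference was -5.72 ± 1.37 (limma adjusted p = 0.00063). Pnliprp2 had 5.44, 5.40 and 8.23, a difference of -5.32 ± 1.30 (limma adjusted p = 0.00081). In both genes array 3 was far above the other 2 and still below all acinar arrays. Cela2a fell by 4.25, Cela1 by 3.93 and Cela3b by 3.30 (limma adjusted p = 0.0014, 0.0017 and 0.0037). Differences from -1.25 for Ctrb1 to -1.99 for Cpa1, with Pnliprp1 between them, were not called, and all 3 genes were above 11 on the log2 scale in every endocrine progenitor array. All 8 genes had arrays apart with endocrine progenitors lower, against 29.8% of all tested probes. In a fit of these 2 populations alone, all 8 genes were called. All 10 endothelial markers were called lower in endocrine progenitors and all 10 endocrine markers higher, and the part of the former in the enzyme differences was not tested.

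Endocrine progenitor array 3 held the highest level of all 8 enzymes, with a mean of 11.62 over the genes against 8.80 and 9.67. Its 6 acinar factors averaged 9.57 against 8.26 and 8.51, whereas its endocrine markers (12.48 against 12.60 and 12.58) were close to the other arrays. Duct markers (9.75 against 9.35 and 9.51) and mesenchyme markers (9.83 against 9.23 and 9.46) were slightly higher in it. What these values contribute to the spread of the enzymes was not tested.

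E15 beta cells had enzyme levels that overlapped those of endocrine progenitors for all 8 genes, and none was called, where 9.43% of all tested probes were. Cpb1 measured 7.38, 5.84, 7.30 and 6.96 in E15 beta cells, Pnliprp2 6.59, 6.48, 6.50 and 6.39, and Ctrb1 13.73, 13.86, 14.08 and 13.88. These 4 arrays agreed closely, with an SD of at most 0.71, and the differences from endocrine progenitors ran from -0.22 to 0.48. No E15 beta array of Pnliprp2 exceeded 100 before the log was taken.

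Cells that lack Neurog3, the factor that starts endocrine differentiation, had more enzyme mRNA than endocrine progenitors. Null cells came from a knock-in line, and endocrine progenitors and acinar cells from a Neurog3-eGFP transgenic line, so genotype and line cannot be told apart. Of the 8 genes 5 rose, where 14.7% of all tested probes were called higher. Pnliprp2 measured 10.02, 11.08, 11.23 and 11.72 in Neurog3-null cells, a difference of 4.66 ± 1.22 (limma adjusted p = 0.0014). Cela1 had 12.38, 13.12, 13.21 and 13.56 against 8.69, 9.32 and 11.21, a difference of 3.33 ± 0.97 (limma adjusted p = 0.0036). In both genes all null arrays lay above all endocrine progenitor arrays. Cpb1 (8.27, 10.64, 10.32 and 11.08) and Cela2a (10.47, 11.15, 11.15 and 11.64) also rose, by 3.51 and 2.53 (limma adjusted p = 0.019 and 0.035), but their lowest null array lay under the highest endocrine progenitor array. Cela3b rose by 2.51 (limma adjusted p = 0.015). Without endocrine progenitor array 1, and likewise without array 2, only the calls of Cela1 and Pnliprp2 were made. Cpa1 (1.74), Ctrb1 (0.99) and Pnliprp1, between them, were not called, although arrays did not overlap. Arrays were apart for 6 genes, against 28.1% of all tested probes.

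Set against acinar cells, Neurog3-null cells were called for none of the 8 enzymes, where 21.9% of all tested probes were called. The differences ran from -2.22 ± 1.28 for Cpb1 to 0.00 ± 1.07 for Pnliprp1, and arrays of 6 genes were apart with null cells lower, against 25.4% of all tested probes. Fitted to both populations alone, 2 genes were called lower. Of the 6 acinar factors, 5 were called higher in null cells than in endocrine progenitors, all but Xbp1, from 2.67 for Nr5a2 to 3.36 for Rbpjl. Null arrays also held more macrophage and leukocyte RNA: 11 of 11 tested markers were called higher than in endocrine progenitors, and the mean over the list was 10.68 to 11.47 per array against 5.76 to 6.02. Within the null arrays the lowest enzyme mean (11.99, array 1) stood beside the highest macrophage mean (11.47) and the lowest mean of acinar factors (10.52). Arrays 2, 3 and 4 had enzyme means of 12.79, 12.67 and 13.04 beside macrophage means of 10.92, 10.68 and 11.14. Their acinar factors averaged 11.63, 11.46 and 11.75. Endothelial markers were called higher than in endocrine progenitors for 6 of 10, with array means of 6.20 to 7.54 against 4.93 to 5.00, and both tested erythroid markers were called higher. All 10 endocrine markers were called lower. The part of these values in the enzyme levels was not tested.

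**Figure D2:**
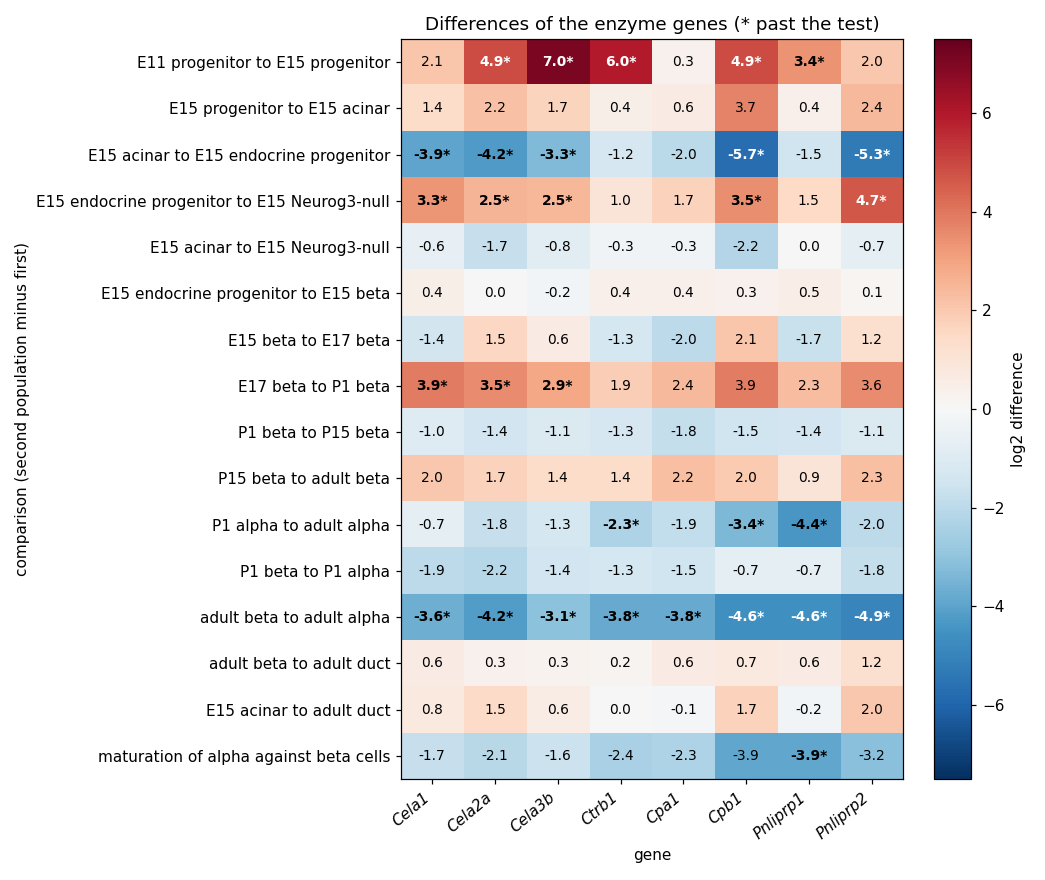
Log2 differences (colour and printed value, second population minus first) of 8 enzyme genes (columns) in 15 pairs of populations and in the test of alpha against beta cell maturation (rows). Asterisks mark calls. From E11 to E15 progenitors 5 genes are marked, and all 8 genes are marked in adult beta against adult alpha cells.

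Beta cells showed no steady course of enzyme levels with age. From E15 to E17 none of the 8 genes was called, where 9.8% of all tested probes were, and the signs differed among genes, from -1.96 for Cpa1 to 2.07 for Cpb1. From E17 to P1 all 3 elastases rose, where 3.81% of all tested probes were called higher. Cela1 measured 6.60, 10.18 and 9.67 at E17 and 13.03, 12.70 and 12.45 at P1, a difference of 3.91 ± 1.03 (limma adjusted p = 0.0093). Cela2a had 7.49, 11.57 and 11.29 and then 13.87, 13.67 and 13.41, a difference of 3.53 ± 1.10 (limma adjusted p = 0.026). Every P1 array lay above every E17 array in both, and E17 array 1 was several log2 units under its companions. Cela3b rose by 2.93 ± 0.94 (limma adjusted p = 0.032). In a fit of both populations alone the elastases were not called (limma adjusted p = 0.052, 0.09 and 0.11), while Cpa1 (2.45) and Pnliprp2 (3.57) were (0.04 and 0.023). Without E17 array 1 no gene was called and the difference of Cela1 was 2.80 ± 1.10 (limma adjusted p = 0.083), and with any single P1 array left out 1 gene was called. From E17 to P1, 3 of 11 tested macrophage markers were called higher, with array means of 8.48 to 8.53 at E17 and 9.59 to 9.90 at P1. Of 10 endothelial markers 2 were called higher, as were 3 of 8 duct markers and 2 of 2 tested erythroid markers. Their part in the rise was not tested.

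E17 array 1 had the lowest level of all 8 enzymes in its population, with a mean of 7.89 against 11.40 and 11.17. Ctrb1 was 10.23 in it against 13.87 and 13.67, and Cpb1 5.38 against 10.25 and 11.19. Its acinar factors (7.89 against 7.99 and 7.91), endocrine markers (13.28 against 13.49 and 13.51) and macrophage markers (8.49 against 8.48 and 8.53) were alike. Mesenchyme (12.68 against 12.12 and 12.29) and endothelial markers (10.51 against 9.23 and 10.17) were the highest in it. What these values contribute to the low enzyme levels was not tested.

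P15 beta cells held 1 array with much higher enzyme levels than the other 3. Array 1 was the highest for all 8 genes, with a mean of 14.16 against 11.38, 11.45 and 10.57. Cpa1 measured 13.88, 10.44, 10.44 and 9.90, and Cpb1 14.11, 10.59, 10.52 and 10.03. In array 1 macrophage (9.01 against 6.73 to 7.63), mesenchyme (8.16 against 5.82 to 6.40) and duct markers (8.90 against 7.93 to 8.12) were also higher, the acinar factors were 8.86 against 8.24 to 8.40, and endocrine markers (13.84 against 13.75 to 13.91) were not. Their part was not tested. None of the 8 genes was called from P1 to P15 (25.5% of all tested probes) or from P15 to adult (7.81%). Without P15 array 1, Cpa1 was called lower at P15 than at P1 (-2.69, limma adjusted p = 0.013). Without it, Cela1 (2.89), Cpa1 (3.13) and Pnliprp2 (3.42) were called higher in adult than in P15 beta cells (limma adjusted p = 0.025, 0.0083 and 0.034).

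Adult beta arrays were uniformly high in enzyme mRNA. Pnliprp2 measured 12.40, 11.71, 13.45 and 12.30, and Ctrb1 14.55, 14.46, 14.76 and 14.55. Array 3 was the highest and array 2 the lowest for all 8 genes, with means of 14.11 and 13.23. Macrophage markers averaged 10.71 to 11.40 in these arrays, with all 11 of the tested markers above 100, and duct markers 9.74 to 10.2. Of the 6 acinar factors, Ptf1a averaged 5.58, Gata4 6.45, Rbpjl 7.25, Nr5a2 9.75, Bhlha15 11.36 and Xbp1 12.42. The levels of enzymes in these sorted beta cells thus stood beside RNA of other cell types and of acinar factors. Of these factors 4 or 5 per array exceeded 100 before the log was taken, and Ptf1a did so in no array. How the enzyme mRNA came to be in these samples was not tested.

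Adult alpha cells divided into a high pair and 3 low arrays for every enzyme. Pnliprp1 measured 12.49 and 13.05 in arrays 1 and 2 and 5.98, 5.46 and 7.35 in arrays 3 to 5. Pnliprp2 measured 10.94 and 11.85 against 4.99, 4.52 and 5.28, and Ctrb1 13.29 and 13.43 against 8.24, 8.76 and 10.24. The pair lay above the others in all 8 genes, with the narrowest gap in Cela3b (13.43 against 10.41). Endocrine markers were alike, 13.47 and 13.42 in the pair and 13.41, 13.41 and 13.17 in the others. Duct markers were 7.58 and 7.64 against 6.73 to 6.75, acinar factors 8.34 and 8.36 against 7.40 to 7.65, and macrophage markers 6.12 and 5.92 against 5.51 to 5.95. The labels give no difference between these 5 arrays.

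From P1 to adult alpha cells 3 enzymes fell, where 13.1% of all tested probes were called lower. Pnliprp1 measured 13.91, 11.52, 13.52 and 13.92 at P1, and its difference was -4.35 ± 0.94 (limma adjusted p = 0.00018). Cpb1 fell by 3.37 and Ctrb1 by 2.32 (limma adjusted p = 0.011 and 0.0055). P1 and adult arrays overlapped for all 8 genes. Without adult arrays 1 and 2 all 8 genes were called lower, from -2.64 for Cela1 to -6.95 for Pnliprp1. Without arrays 3 to 5, 7 of the 8 differences were above 0 and Cela1 was called higher (2.33, limma adjusted p = 0.014), and fitted to both populations alone no gene was called. Without P1 array 2, 7 genes were called lower. Between the same arrays all 10 mesenchyme markers, all 10 endothelial markers, 7 of 8 duct markers and 8 of 11 tested macrophage markers were called lower. Mesenchyme markers averaged 11.25 to 12.17 at P1 and 5.99 to 6.28 in adults, and endothelial markers 8.80 to 10.32 and 5.30 to 5.56. Their part in the enzyme differences was not tested.

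P1 alpha array 2 was the lowest of its population for all 8 enzymes, with a mean of 9.59 against 11.86 to 12.85. Cela2a was 9.12 in it against 12.73, 11.54 and 12.56. Its acinar factors (7.85 against 7.98 to 8.29), duct markers (9.04 against 9.57 to 9.81) and mesenchyme markers (11.25 against 11.59 to 12.17) were the lowest too, and its endocrine markers (13.60 against 13.58 to 13.70) were within the range of the others. P1 alpha and P1 beta cells did not differ by a call in any of the 8 enzymes (19.8% of all tested probes). Alpha arrays of Cela1, Cela2a, Cela3b and Ctrb1 all lay under the beta arrays, by means of 1.94, 2.16, 1.45 and 1.35 log2 units, and arrays were apart in that direction for 26.8% of all tested probes. In P1 alpha cells 10 of 11 tested macrophage and 7 of 10 endothelial markers were called lower than in P1 beta cells.

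In adults all 8 enzymes were lower in alpha than in beta cells, where 11% of all tested probes were called lower. The differences ran from -3.06 ± 0.77 for Cela3b to -4.95 ± 1.07 for Pnliprp2, and the smallest adjusted p by limma was 2.8e-05, for Ctrb1 (-3.79 ± 0.70). Fitted to both populations alone, standard errors were larger, and Ctrb1 had -3.79 ± 1.06 (limma adjusted p = 0.024). All genes but Pnliprp1 (limma adjusted p = 0.053) were called in that fit. Arrays were apart for 5 of the genes, against 16.2% of all tested probes, since alpha array 2 reached the beta range for Cpa1, Pnliprp1 and Pnliprp2. Without alpha arrays 3 to 5 no gene was called and the differences ran from -0.56 to -1.25. Without alpha arrays 1 and 2 they ran from -4.73 to -7.53 and all 8 were called. Macrophage markers, at 10.71 to 11.40 in adult beta arrays, were 5.51 to 6.12 in adult alpha arrays, with 11 of 11 tested markers called lower. Of duct markers 6 of 8 and of mesenchyme markers 6 of 10 were called lower too. Their part in the difference was not tested.

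The test of whether alpha and beta cells changed differently from P1 to adult called 1 of the 8 enzymes, where 10.9% of all tested probes were called lower. Pnliprp1 had a difference of the differences of -3.89 ± 1.43 (limma adjusted p = 0.031). The other 7 had values from -1.62 to -3.87 that were not called. The call of Pnliprp1 depended on the adult alpha arrays: without arrays 1 and 2 it was -6.49 and all 8 genes were called, and without arrays 3 to 5 it was 0.016 and none was.

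**Figure D3:**
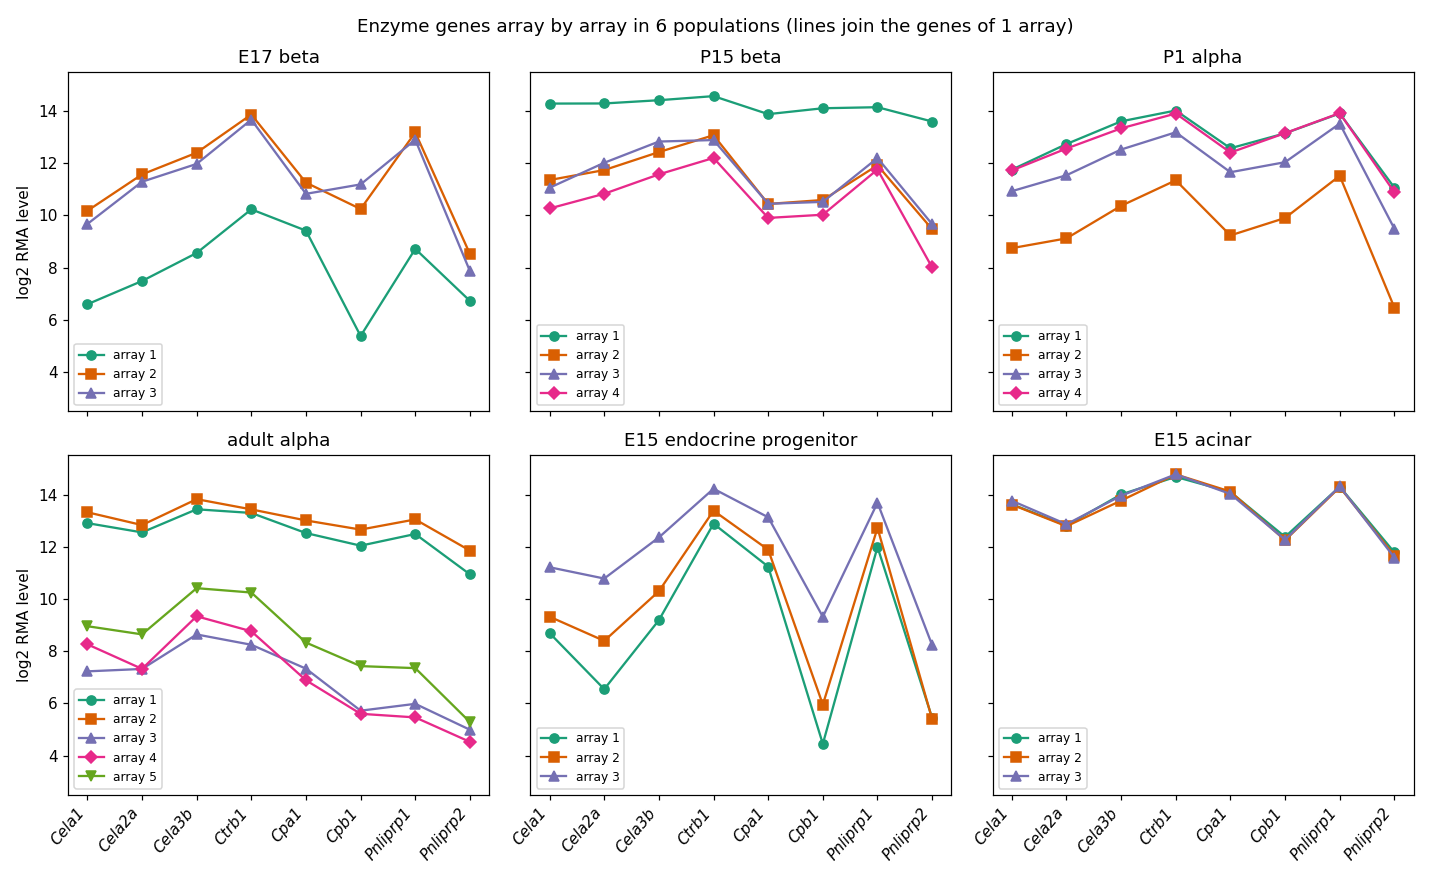
Log2 RMA level (vertical axis) of 8 enzyme genes (horizontal axis) in single arrays of 6 populations. Each line follows 1 array, and levels of different genes on it are not comparable. In adult alpha cells arrays 1 and 2 run above the others at every gene, as P15 beta array 1 does, while E17 beta array 1 and P1 alpha array 2 run below, and the 3 E15 acinar arrays nearly coincide.

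Adult duct cells, which carry the juice that acinar cells secrete, held enzyme mRNA at levels that differed from those of E15 acinar cells by -0.20 for Pnliprp1 to 2.00 for Pnliprp2. None of the 8 genes was called between E15 acinar and adult duct cells, where 39.5% of all tested probes were. Pnliprp2 measured 13.14, 13.45, 14.00 and 14.13 in duct cells against 11.78, 11.66 and 11.58 in acinar cells, a difference of 2.00 ± 1.22 (limma adjusted p = 0.15). Cpb1 measured 13.71, 13.90, 14.26 and 14.19 against 12.38, 12.25 and 12.27, a difference of 1.72 ± 1.28 (limma adjusted p = 0.25). Duct arrays lay above acinar arrays in both genes, as they did for all 3 elastases. That makes 5 of 8 genes, against 29.8% of all tested probes, and for Pnliprp1 duct arrays lay below (35% of all tested probes). Fitted to both populations alone, Pnliprp2, Cpb1 and Cela2a were called higher in duct cells.

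Acinar factors had another pattern in the same duct arrays. Ptf1a was 5.69 log2 units lower than in E15 acinar cells (limma adjusted p = 7.1e-13), Gata4 4.40 lower (1.3e-15), Bhlha15 3.82 lower (1.3e-10) and Rbpjl 3.68 lower (3.8e-08). So 4 of 6 factors fell, where 20.1% of all tested probes were called lower, and Nr5a2 (12.15 in duct cells) and Xbp1 (12.33) were not called. Of the other acinar enzymes Ctrl, a chymotrypsin-like protease, was 5.02 higher in duct than in E15 acinar cells. Pla2g1b, a phospholipase, was called higher too, with means of 6.46 in E15 acinar cells, also under 100 on the linear scale, and 13.19 in duct cells. Of the granule genes Gp2, the main granule membrane glycoprotein, was called higher, with means of 6.33 in acinar cells, which lies under 100 on the linear scale, and 12.92 in duct cells. Cuzd1 was 5.51 and Zg16 2.75 higher, and the secretagogue receptor Cckar and Rab3d were lower by 2.94 and 1.21. Ctrl, Pla2g1b, Gp2 and Cckar were named after their values had been seen. Duct markers averaged 11.7 to 12.1 in these arrays, and macrophage markers 11.1 to 12.1 although leukocytes had been gated out. Endothelial markers were called lower than in acinar cells for 9 of 10. With stage, sort and dissociation differing between these populations, the source of the difference cannot be told apart. Against adult beta cells no enzyme was called either (32.3% of all tested probes), with differences from 0.20 for Ctrb1 to 1.22 for Pnliprp2.

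**Figure D4:**
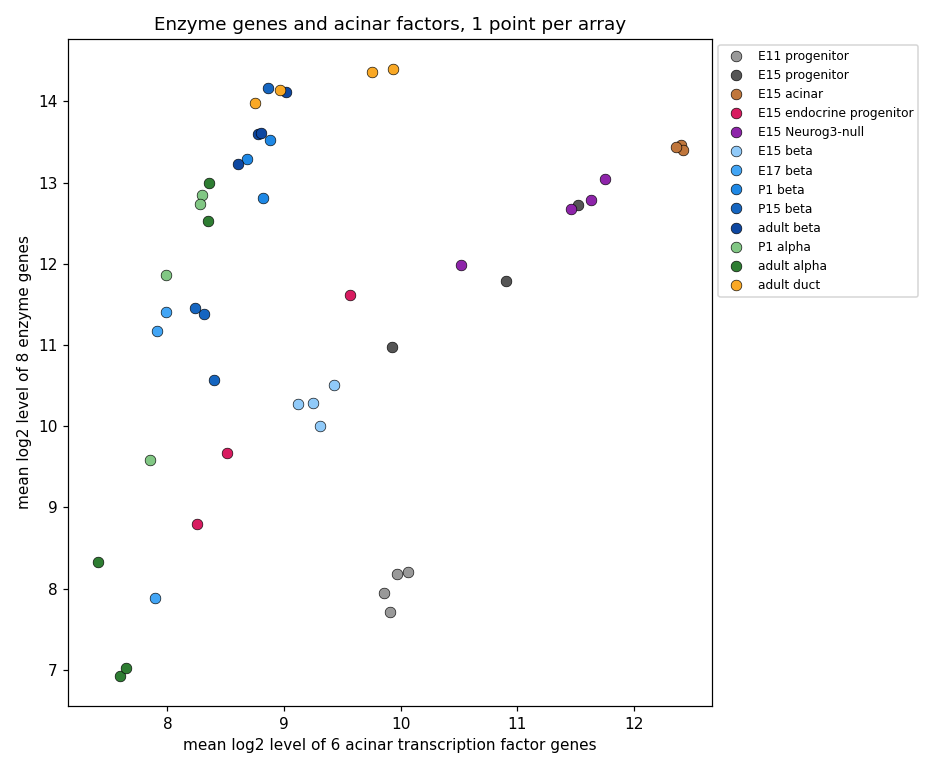
Mean log2 level of 8 enzyme genes (vertical axis) against that of 6 acinar transcription factor genes (horizontal axis), 1 point per array, coloured by population. E15 arrays rise together from endocrine progenitors to acinar cells, E11 arrays lie low for enzymes at a factor mean near 10, and adult duct and adult beta arrays reach enzyme means of 13.2 to 14.4 at factor means of 8.60 to 9.93.

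The 8 enzymes varied together. Over deviations of the 48 arrays from their population mean, Pearson's r of the 28 gene pairs ran from 0.88 to 0.98 with a median of 0.94. Adult alpha cells, with a high pair and 3 low arrays, held 43.3% to 69.8% of the sum of squares of these deviations. Over the 13 population means it ran from 0.23 to 0.98 with a median of 0.72. These arrays share their normalization and, within a population, the sort, so the values are descriptions. Cpa1 had the population profile least like the others, with r = 0.63 to the mean profile of all 8 genes, itself included, against 0.83 to 0.92 for the other 7. It was the 1 gene whose E11 arrays (13.09 to 13.19) lay within 1 log2 unit of its E15 acinar mean (14.08).

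Among 14405 genes, those that are no member with the profile over 13 population means most like the mean profile of the enzymes were mainly of the exocrine pancreas. Cel, the bile salt-activated lipase, came first (r = 0.99), followed by Pdia2, the pancreatic protein disulfide isomerase (0.98), Tmed11 (0.94), the ribonuclease Rnase1 (0.92) and the granule protein Sycn (0.91). Then came the trypsin inhibitor Spink1 (0.90), the endoplasmic reticulum protein Erp27 (0.89), the water channel Aqp12 (0.89), Klk1 (0.89) and Reg3d (0.88). Cel, for instance, had means of 7.56 in E11 progenitors, 13.3 in E15 acinar cells, 8.77 in adult alpha and 14.0 in adult duct cells. The acinar factors had lower values, with r = 0.60 for Bhlha15, 0.47 for Rbpjl and 0.08 for Ptf1a over the same 13 means.

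Other enzymes followed the 8 genes in part. Of the 10 with a probe, 4 rose from E11 to E15 progenitors (Rnase1, Prss3, Cel and Ctrc), where 4.95% of all tested probes did. From acinar cells to endocrine progenitors 8 fell (13% of all tested probes). In Neurog3-null cells 8 rose against endocrine progenitors (14.7% of all tested probes). Pla2g1b went the other way at E15, with means of 6.46 in acinar cells, 8.51 in endocrine progenitors and 9.55 in beta cells. From E17 to P1 beta cells 7 of the 10 rose, where 3.81% of all tested probes did. Prss3 departed from the members after birth: its mean was 12.14 in P1 beta cells, 7.95 at P15 and 7.82 in adult beta cells, against 12.33 in E15 acinar cells and 11.84 in adult duct cells. It fell from P1 to P15 beta cells by 4.19 (limma adjusted p = 0.00036), while none of the 8 members was called there, and the difference between the genes was not tested. Klk1 and Ctrc, in contrast, had means of 12.57 and 12.23 in adult beta and 11.19 and 11.05 in E15 acinar cells. Trypsinogen genes share long stretches of sequence, so the Prss3 probe may pick up related transcripts.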

How the data were processed

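Sorted populations of mouse pancreas were measured on 48 Affymetrix mouse genome arrays. The authors normalized them by RMA and deposited log2 values (submitters' notes: RMA, R 2.11.1), which were used as they stand. RMA sets arrays on 1 distribution, so a value is a relative level, and a gene near the top of the range can be understated. The submitters' probe annotation gave 34958 probes 1 gene, 932 several and 9211 none. The members and gene lists were chosen with earlier results of these data known.

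Probes above 100 on the linear scale in at least 1 array (32078 of 45101) were fitted with limma 3.58.1 in R 4.3.3, with a mean for each of 13 populations (35 residual and 3.55 prior degrees of freedom). A call needs a Benjamini-Hochberg adjusted p under 0.05 over all tested probes and an absolute log2 difference of at least 1, second population minus first. The ± after a difference is its standard error. Comparisons numbered 16, of which several share a population. The fit was tested on simulated data in which each probe had the same spread in all populations. The spread of these genes differed between populations, which that test does not cover.

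Cela3b has 4 probes and Pnliprp2 2, correlated with the brightest at r of at least 0.987. The genes named are all members, the 10 genes with the most similar population profile, and of each further exocrine list up to 3 genes with the largest difference from E15 progenitors to acinar cells and any called against its list there (none was). Ctrl, Pla2g1b, Gp2, Cckar, Gata4, Xbp1, Nr5a2 and Amy1, and the means of Cel, were chosen after their values were seen. Deviations of same-numbered arrays correlated weakly for E11 and E15 progenitors (r from 0.106 to 0.148 over 3 pairs). Their embryos differed in stage and reporter, so a shared number does not make them biological pairs. In no other comparison did every pair exceed 0.1. Labels do not say that arrays came from separate animals beyond pooling, so p-values measure the spread between these samples. Alternatives covered filters, normalization, array weights, the populations fitted, the replicate block, the methods' t-test, the mean of a gene's probes and leaving out arrays. Leaving out adult alpha arrays together was chosen after seeing the data.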

Additional observations from a re-analysis of the deposited data

Results flagged for a closer look

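In 64 groups of 4 or 5 arrays (8 genes in the populations of that size), 3 single arrays stood far from their companions, where chance flags about 1 group in 20. That number is close to this share, and the genes vary together within arrays, so the groups are not separate tests. Cpa1 in P15 beta array 1 measured 13.88, with the nearest other array at 10.44, and Cpb1 in the same array 14.11, with the nearest at 10.59. Pnliprp1 in P1 alpha array 2 measured 11.52, with the nearest other array at 13.52. The change of Pnliprp1 from P1 to adult differed between alpha and beta cells by -3.89 log2 units in the test of that difference. No explanation of these values was tested.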

How the results depend on the processing

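With 8 enzymes, the number called was within 1.5 times the reported one in 203 of the alternatives tried and moved further in 70. Leaving out 1 array at a time gave 4 to 5 calls from E11 to E15 progenitors, 0 to 1 from E15 progenitors to acinar cells, 5 from acinar cells to endocrine progenitors and 2 to 5 from those to Neurog3-null cells. It gave 0 to 1 from E15 to E17 beta cells, 0 to 4 from E17 to P1, 0 to 1 from P1 to P15, 0 to 3 from P15 to adult, 2 to 7 from P1 to adult alpha cells, 8 between adult beta and alpha cells and 0 to 5 in the test of alpha against beta maturation. The other comparisons stayed at 0.

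Array weights gave 4 calls from E15 progenitors to acinar cells, 8 from acinar cells to endocrine progenitors, 8 from those to null cells, 3 from E15 to E17, 6 from E17 to P1, 6 from P1 to P15 and 7 from P15 to adult beta cells, 8 from P1 to adult alpha cells, 6 between P1 beta and alpha cells, 1 from acinar to duct cells and 8 in the maturation test. Fitting only the populations compared gave 4 from E15 progenitors to acinar cells, 8 from acinar cells to endocrine progenitors, 2 from acinar to null cells, 1 from E15 to E17 beta, 0 from P1 to adult alpha, 1 between P1 beta and alpha, 1 from adult beta to duct, 3 from acinar to duct cells and 0 in the maturation test. With the replicate block in such a fit the counts were 4, 8, 2, 1, 0, 2, 1, 3 and 0 for the same comparisons, 0 from E17 to P1 beta and 0 between adult beta and alpha cells. By their labels, same-numbered arrays share only the number, and the correlation of such arrays from P1 to P15 beta cells was -0.417 to -0.0732. The methods' t-test at a fold of 2 after Benjamini-Hochberg gave 3 calls from acinar cells to endocrine progenitors, 1 from acinar to null cells, 3 from acinar to duct cells, and 0 from E17 to P1 beta, from P1 to adult alpha and between adult beta and alpha cells. A stricter filter gave 1 and the mean of a gene's probes 1 from E15 progenitors to acinar cells, and the latter 5 from E17 to P1 beta. The causes were not tested.

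Without adult alpha arrays 1 and 2, 8 genes were called from P1 to adult alpha cells and 8 in the maturation test. Without arrays 3 to 5 the counts were 1, 0 for the maturation test and 0 against adult beta cells. Of 2184 differences of single genes under an alternative, 34 changed sign, 4 of them with a call on either side. Without arrays 3 to 5 the change from P1 to adult alpha cells was 2.33 for Cela1, 1.20 for Cela2a, 1.17 for Cela3b, 0.25 for Ctrb1, 1.30 for Cpa1, 0.29 for Cpb1 and 1.92 for Pnliprp2. The maturation test then gave 1.27 for Cela1, 0.90 for Cela2a, 0.88 for Cela3b, 0.13 for Ctrb1, 0.85 for Cpa1, 0.016 for Pnliprp1 and 0.73 for Pnliprp2. The other sign changes had no call on either side. Pnliprp1 in null against acinar cells was -0.028 with the block, and -0.040 to 0.066 with an array left out. From endocrine progenitors to E15 beta cells, array weights gave 0.40 for Cela2a and 0.15 for Cela3b. Leaving out an array gave -0.080 to 1.18 for Cela1, -1.02 to 1.10 for Cela2a, -0.93 to 0.65 for Cela3b, -0.048 to 0.90 for Cpa1, -0.76 to 1.67 for Cpb1 and -0.35 to 1.07 for Pnliprp2 there. It gave -0.13 to 1.80 for Cela3b from E15 to E17 beta cells, -1.45 to 0.073 for Cela1 from P1 to adult alpha cells and -0.12 to 0.0017 for Cpa1 from acinar to duct cells, where Ctrb1 was -0.083 after quantile normalization.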
